A study of Mus musculus and Homo sapiens with 17 samples.

Results

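The genes described here encode the structural proteins of the cornified envelope, which lie side by side in the epidermal differentiation complex. Members were taken by symbol: every gene starting with Lce or Sprr, plus Flg, Flg2, Hrnr, Rptn, Tchh, Tchhl1, Lor, Ivl, Crnn, Crct1 and Kprp, where the counts summed over all libraries of a table reached 20. The S100 genes of the complex were not included. In mouse, 48 of 54532 named genes were members and all 48 were tested, while Sprr2c-ps fell below the minimum. In human A431 cells 38 of 58735 were members and 34 were tested. LCE3B, LCE3C, LCE4A, LCEP1, LCEP2 and LCEP4 had a count of 0 in all 6 libraries, and LCE1D, LCE1E, LCE5A and SPRR5 had too few counts to test.

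As keratinocytes leave the basal layer they replace their plasma membrane with a shell of proteins that transglutaminases bind to each other. Involucrin (Ivl) is laid down early as a scaffold, loricrin (Lor) supplies most of the mass, small proline-rich proteins (Sprr) bridge the others, and late cornified envelope proteins (Lce) are added last. Filaggrin (Flg) and its relatives, which carry a calcium-binding S100 domain fused to long repeats, bundle keratins and help to build the outer layer. Sprr1, Sprr2 and Lce3 genes are known to be switched on in injured or inflamed epidermis, and most Lce1 genes in undisturbed epidermis.

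The mouse libraries came from whole sections of frozen tissue of C57BL/6-129 mice treated with DMBA, a mutagen, and TPA, a tumour promoter. They were 2 squamous cell carcinomas labelled DUSP1 KO (KO SCC), 3 papillomas labelled DUSP1 KO (KO papilloma), 3 wild-type carcinomas (WT SCC) and 3 samples of wild-type treated skin (WT skin). A431, a human line from an epidermoid carcinoma, carried a guide RNA against DUSP1 (A431 DUSP1 KO, 3 libraries) or a Tomato guide (A431 control, 3 libraries). These cells were grown in the skin of mice for 3 weeks from 100000 cells and separated from mouse cells before RNA extraction. DUSP1 is a phosphatase that switches off MAP kinases. The comparisons address how lesions labelled KO differ from wild-type ones, how carcinoma differs from papilloma or skin, and how A431 cells targeted at DUSP1 differ from control cells. The labels do not tell whether the replicates were different animals or xenografts, nor whether the A431 DUSP1 KO libraries were from 1 clone, so p-values measure only the spread between these libraries. The column names of all A431 DUSP1 KO libraries carry CL2, and those of replicates 2 and 3 both end in CL2_3. What these names mean is not stated.

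Library totals ran from 34378300 to 53456450 counts. Levels are CPM, each gene's count scaled to a common library total with TMM factors, which align the libraries on the bulk of their genes. A gene is said to rise or fall only where edgeR's quasi-likelihood test gave an adjusted p below 0.05 over all genes tested. Mouse Dusp1 had 139 and 174 CPM in KO SCC against 73.3, 83.6 and 66.5 CPM in WT SCC and rose in KO SCC by this test (log2 1.07 ± 0.25, adjusted p = 0.0283). It had 129, 109 and 109.5 CPM in KO papilloma and 94.1, 109 and 52.3 CPM in WT skin, and no test of it is given for these. Mouse directions below are therefore those of the labels. In A431, DUSP1 was at 73.5, 70.9 and 77.1 CPM in DUSP1 KO cells, against 471, 467 and 485 CPM in control cells. WT skin libraries stood apart in their makeup: 10 keratinocyte markers summed to 9816 to 17858 CPM there and to 44379.6 to 72626 CPM in the 8 lesion libraries, and 6 skeletal muscle markers to 5256 to 7272 CPM in WT skin and 5.34 to 121 CPM in the lesions. In whole sections, fewer cells of a type and less RNA per cell cannot be told apart.

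The 48 mouse members span 1.39 megabases of chromosome 3 in GRCm38, from Lor at chr3:92080271-92083142 to Tchhl1 at chr3:93468754-93471980. The Sprr genes come first, then Ivl, Lce6a, the Lce1 block with Kprp inside it, the Lce3 block, Crct1, Lce1m and the S100-fused genes. RefSeq promoters (GRCm38.p6, from 250 bases before to 50 after the start) were found for 43 of them. The AP-1 heptamer TGANTCA, the element that Fos and Jun proteins bind, was searched on both strands and occurred in 16 of the 43 (37.2%), against 7.81% of 32851 mouse promoters. It was in 9 of 14 Sprr promoters and in 7 of 10 others, Lor, Ivl, Flg and Flg2 among them, but in 0 of 13 Lce1 and 0 of 6 Lce3 promoters. Copies within a family were counted as separate promoters and need not be independent. In Sprr2b, Sprr2d, Sprr2e, Sprr2f, Sprr2h and Sprr2i the heptamer began between -198 and -193 from the start. The TATA box TATAAA was in 20 of 43 (46.5%), against 13.6% of all promoters. The GC-box GGGCGG was in 1 of 43 (2.33%, against 35.7%), the CACCC-box CCACCC in 10 (23.3%, against 31.5%) and the palindromic Grhl octamer in 0, against 0.146% of all. A match is only a description of these letters. The 200 bases before the start of 6 genes, chosen to show promoters with and without the heptamer, are given 5′ to 3′ with AP-1 heptamers and TATA boxes in capitals.
Sprr1a, chr3:92485882-92486081, minus strand: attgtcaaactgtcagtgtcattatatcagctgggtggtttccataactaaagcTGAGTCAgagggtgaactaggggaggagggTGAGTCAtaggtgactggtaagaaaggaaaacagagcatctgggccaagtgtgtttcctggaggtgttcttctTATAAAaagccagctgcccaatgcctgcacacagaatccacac
Sprr2h, chr3:92385485-92385684, plus strand: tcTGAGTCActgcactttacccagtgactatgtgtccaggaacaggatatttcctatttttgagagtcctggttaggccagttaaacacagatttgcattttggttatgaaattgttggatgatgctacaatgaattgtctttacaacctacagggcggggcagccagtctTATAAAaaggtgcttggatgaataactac
Lor, chr3:92083143-92083342, minus strand: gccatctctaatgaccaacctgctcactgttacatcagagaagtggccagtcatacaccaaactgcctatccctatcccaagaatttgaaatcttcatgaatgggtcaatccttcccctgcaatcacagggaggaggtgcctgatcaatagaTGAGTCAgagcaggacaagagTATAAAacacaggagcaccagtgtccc
Ivl, chr3:92573736-92573935, minus strand: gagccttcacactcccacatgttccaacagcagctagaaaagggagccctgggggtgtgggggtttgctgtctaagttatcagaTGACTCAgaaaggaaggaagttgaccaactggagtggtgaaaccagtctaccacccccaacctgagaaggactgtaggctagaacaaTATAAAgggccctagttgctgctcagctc
Lce3c, chr3:92944286-92944485, plus strand: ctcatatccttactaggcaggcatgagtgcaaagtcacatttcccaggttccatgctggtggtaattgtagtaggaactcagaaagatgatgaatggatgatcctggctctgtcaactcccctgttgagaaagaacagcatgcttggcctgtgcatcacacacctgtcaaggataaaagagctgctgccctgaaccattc
Lce1a1, chr3:92648308-92648507, minus strand: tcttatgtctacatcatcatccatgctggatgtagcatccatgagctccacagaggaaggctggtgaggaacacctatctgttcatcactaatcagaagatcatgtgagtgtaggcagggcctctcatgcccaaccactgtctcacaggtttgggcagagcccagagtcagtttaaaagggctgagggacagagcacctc
Sprr1a holds 2 heptamers, from -146 to -140 and from -116 to -110 counted from the start, Lor holds 1 from -48 to -42 and Ivl 1 from -116 to -110. The printed stretches of Lce3c and Lce1a1 hold none.

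In every group the highest levels per length belonged to short genes of the Sprr and Crct1 type. Per kilobase of merged exons, Sprr1a averaged 3228 ± 418 CPM in KO SCC (SD, n = 2), 3471 ± 1227 in KO papilloma and 1756 ± 145 in WT SCC (n = 3 each), ranking first of 48 members in each, while in WT skin it ranked behind Crct1 at 627 ± 216 against 729 ± 146 (n = 3), values that do not differ beyond their spread. Flg, a very long gene, reached 4.36 CPM per kilobase in KO SCC, 30.7 in KO papilloma, 6.33 in WT SCC and 10.1 in WT skin. All members together made up 13334 and 16468 CPM in KO SCC, 19265, 16191 and 17775 CPM in KO papilloma, 5335, 4499 and 5514 CPM in WT SCC, and 8795, 5594 and 7659 CPM in WT skin. Every lesion labelled KO lay above every WT carcinoma. Divided by the keratinocyte markers of the same library, the sums were 0.214 and 0.282 in KO SCC, 0.265, 0.352 and 0.344 in KO papilloma, 0.115, 0.0961 and 0.124 in WT SCC, and 0.618, 0.313 and 0.780 in WT skin. On that scale WT skin lay highest or overlapped the papillomas, and the WT carcinomas lowest.

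**Figure D1:**
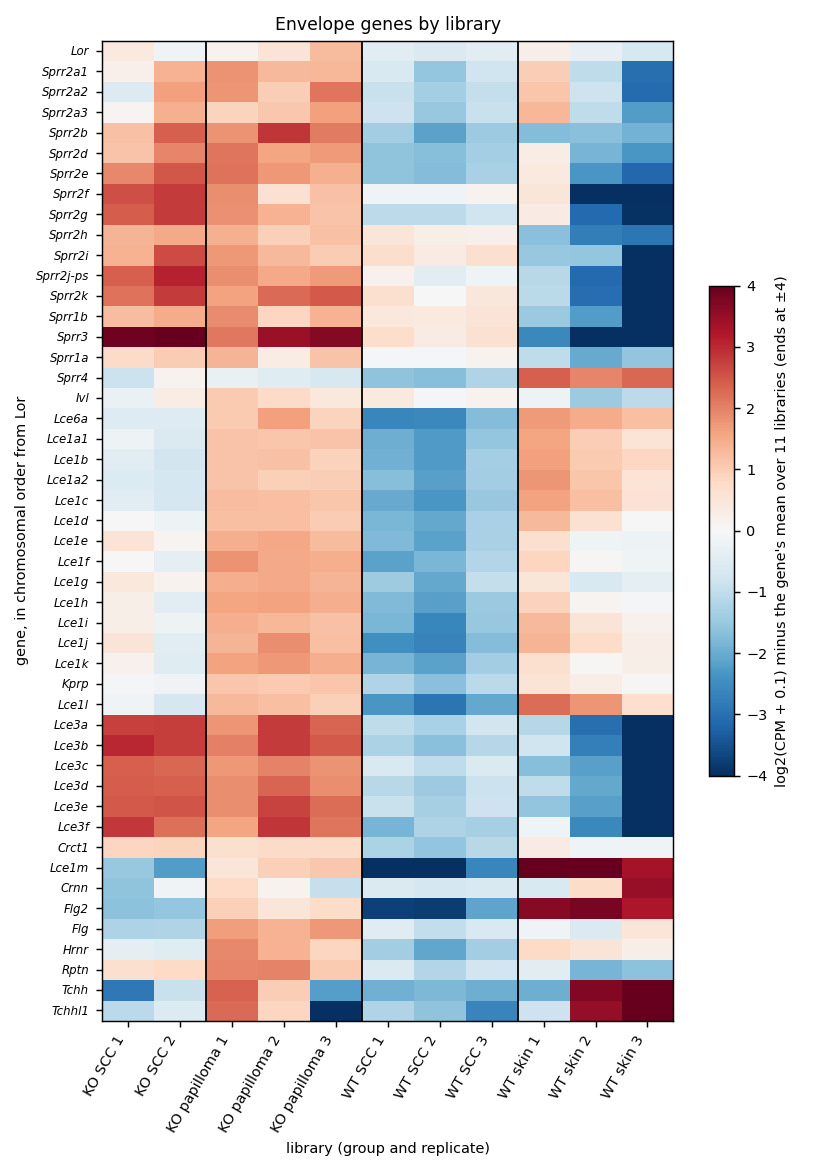
Each row is 1 of the 48 mouse members in chromosomal order and each column 1 of 11 libraries; colour is log2(CPM + 0.1) minus the gene's mean over the libraries, with colours ending at 4 on either side. The Lce1 rows are blue in the WT carcinomas, the Lce3 rows are red in KO SCC and KO papilloma, and the Tchh and Tchhl1 rows are reddest in WT skin replicates 2 and 3.

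Between the carcinomas, envelope genes were broadly higher under the KO label. Of 48 members, 30 rose and 0 fell in KO SCC relative to WT SCC, against 4.48% of all 22371 genes tested that rose and 3.38% that fell. The median log2 fold change was 1.73 over the members and -0.01 over all genes. All libraries of KO SCC lay above all of WT SCC for 44 members and below for 1, Flg, where 22.9% and 23.7% of all genes did so. The 10 keratinocyte markers summed to 62226 and 58500.4 CPM in KO SCC, against 46443, 46835 and 44379.6 CPM in WT SCC, and 7 leukocyte markers to 129 and 146 CPM in KO SCC, against 300.3, 285 and 389 CPM in WT SCC. Both sums were apart between the groups, and their part in the member differences was not tested. Crct1, a small cysteine-rich protein gene at chr3:93014205-93015687 (minus strand), had 1038 and 1061 CPM in KO SCC, against 238, 190.1 and 260.3 CPM in WT SCC. The groups were far apart, and Crct1 rose 4.58-fold (log2 2.19 ± 0.19 SE, adjusted p = 0.000232).

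All 6 Lce3 genes rose, by log2 3.06 to 4.24, the largest median of the subfamilies that hold more than 1 gene. Summed, they reached 1890.1 and 1788 CPM in KO SCC, against 168, 129 and 183 CPM in WT SCC. Lce3c (chr3:92944486-92945733, plus strand), the highest of them, had 571 and 534 CPM in KO SCC, against 72.2, 54 and 72.7 CPM in WT SCC. The KO SCC libraries agreed closely with each other here, and the fold change was 8.33 (log2 3.06 ± 0.48, adjusted p = 0.00541). Lce3c, Lce3d, Lce3e and Lce3f share many 50-base stretches with one another. Of theirs, 50.7% to 64.3% are unique among mouse transcripts, so how reads were divided between them is uncertain.

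Of the 14 Lce1 genes 13 rose, by log2 1.11 to 2.35, and Lce1m did not pass (log2 1.72 ± 0.55, adjusted p = 0.0798). Their sums were 688 and 530.2 CPM in KO SCC, against 188, 149.7 and 267 CPM in WT SCC. Lce1e had 68.8 and 51.3 CPM in KO SCC, against 13.8, 10.7 and 19.2 CPM in WT SCC, and its groups did not overlap (log2 2.04 ± 0.29, adjusted p = 0.00313). Lce6a, an outlying relative, rose 3.44-fold (adjusted p = 0.00782). Kprp, the keratinocyte proline-rich protein gene, had 67.4 and 62.9 CPM in KO SCC, against 29.9, 21.8 and 33 CPM in WT SCC. It too rose, by log2 1.21 ± 0.19 (adjusted p = 0.00479). From Lce6a to Crct1, 22 neighbouring members over 396 kilobases all rose. Lce1 genes share 50-base stretches too, with 72.9% to 100% of theirs unique (77.3% for Lce1e), so neighbours are not fully separate measurements.

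The balance of Lce3 to Lce1 differed between the groups. Summed Lce3 over summed Lce1 was 2.75 and 3.37 in KO SCC, against 0.893, 0.865 and 0.683 in WT SCC. In KO papilloma the ratio was 0.621, 0.978 and 0.825, and in WT skin 0.0517, 0.0342 and 0.0111. Among the mouse groups, KO SCC was the only 1 in which Lce3 exceeded Lce1. In A431 the ratio was 4.39 to 6.2 in DUSP1 KO cells and 7.94 to 11.2 in control cells, where summed LCE1 was at most 2.95 CPM in any library. The ratio is free of library scaling and was not given a test.

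The Sprr genes were less even. Of 12 Sprr2 genes, Sprr2b, Sprr2d, Sprr2e, Sprr2g and Sprr2h rose, and all 12 had KO SCC above WT SCC. Sprr2b had 28.6 and 66.3 CPM in KO SCC, against 4.7, 2.76 and 4.56 CPM in WT SCC. Although the KO SCC libraries differed from each other, both were clear of WT SCC (log2 3.57 ± 0.39, adjusted p = 0.000886). Sprr2a1, Sprr2a2 and Sprr2a3 spread widely, Sprr2a2 having 161 and 733 CPM in KO SCC against 129, 93 and 121 CPM in WT SCC (adjusted p = 0.198). Only 3.72%, 3.53% and 38.9% of the 50-base stretches of Sprr2a1, Sprr2a2 and Sprr2a3 are unique, and the first and the next overlap on 1 strand, so their counts cannot be assigned to single genes with confidence. Sprr3, known best from the lining of the mouth and oesophagus, had 1376 and 1803 CPM in KO SCC, against 149, 115 and 139.6 CPM in WT SCC. The groups were wide apart, but the test in the fit shared by all 4 groups did not pass (log2 3.56 ± 1.26, adjusted p = 0.108). Sprr1a had 2364 and 2840.0 CPM in KO SCC, against 1367, 1331 and 1549 CPM in WT SCC, and Sprr1b 1683 and 1984 against 964, 928 and 1019 CPM. These most abundant members lay higher in KO SCC but did not pass (adjusted p = 0.116 and 0.364). Sprr4 rose 2.34-fold (adjusted p = 0.02).

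Flg, Ivl and Lor, textbook markers of keratinocyte differentiation, did not pass the test in the fit shared by all 4 groups. With only KO SCC and WT SCC in the fit, Flg fell and Lor rose (adjusted p = 0.0358 and 0.0302). Flg (chr3:93273523-93293686, plus strand) had 80.7 and 83.4 CPM in KO SCC, against 136, 96.5 and 125 CPM in WT SCC. Its KO SCC libraries were both below WT SCC, without passing the test (log2 -0.54 ± 0.27, adjusted p = 0.248). Ivl (chr3:92570902-92573735, minus strand) had 209 and 313 CPM in KO SCC, against 329, 240.0 and 278 CPM in WT SCC, and these overlapped (log2 -0.11 ± 0.34, adjusted p = 0.885). Lor had 694 and 477 CPM in KO SCC, against 389, 356 and 393 CPM in WT SCC (log2 0.63 ± 0.33, adjusted p = 0.261), and both KO SCC libraries lay above all of WT SCC. Of the other S100-fused genes, Hrnr, the hornerin gene, and Rptn, the repetin gene, rose 2.23-fold and 2.90-fold (adjusted p = 0.0392 and 0.0432), and Flg2, Crnn, Tchh and Tchhl1 did not pass.

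Partner genes outside the complex are named here and below by their smallest p, not by the size of their change. Of 4 transglutaminase genes, whose enzymes join envelope proteins, Tgm1 (log2 1.20 ± 0.20, adjusted p = 0.00758) and Tgm3 (log2 3.02 ± 0.56, adjusted p = 0.0107) rose. Of 15 envelope and cornified layer genes outside the complex 6 rose, including Cdsn and Dsc1, adhesion proteins of upper keratinocytes (log2 2.07 and 2.04), and Krt10, the keratin of suprabasal cells, fell (log2 -1.59 ± 0.33, adjusted p = 0.0178). Of 15 genes of filaggrin processing 3 rose, including the protease inhibitor Spink5 (log2 3.17 ± 0.33, adjusted p = 0.000761) and the protease Pcsk6 (log2 1.78). Of 27 transcription factors known to act on the complex 7 rose, including Ovol1 and Hopx (log2 1.85 and 1.80), and 3 fell, including Jun and Jund (log2 -0.82 and -0.79). Over all genes 4.48% rose and 3.38% fell. The calls were sensitive to single libraries: 7 members rose without KO SCC replicate 1, 17 without KO SCC replicate 2, and 16 and 10 without WT SCC replicates 1 and 2. How many of all genes passed in these runs is not given, so the drop cannot be read as particular to the members. Crct1, Kprp, Lce1e, Lce3c and Sprr2b passed under every alternative run.

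**Figure D2:**
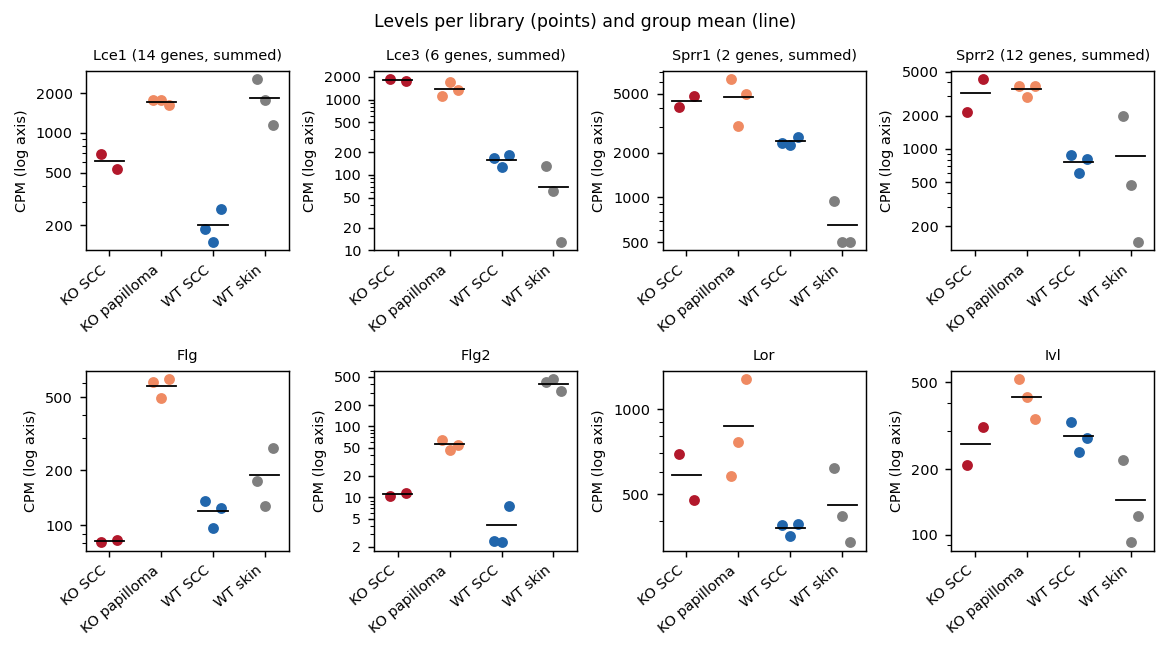
Each point is 1 library and each line a group mean, on log axes of CPM, for the summed Lce1, Lce3, Sprr1 and Sprr2 genes and for Flg, Flg2, Lor and Ivl. Lce3 is at 1788 CPM or more in KO SCC against 183 CPM or less in WT SCC, while Flg in KO SCC lies below the other 3 groups.

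Relative to WT SCC, many envelope genes were also higher in the papillomas labelled KO. Lesion type and genotype label differ together in this comparison, so they cannot be told apart, and it uses the same WT SCC libraries as the comparison between carcinomas. Of 48 members 32 rose and 0 fell, against 3.49% and 1.77% of all genes. The median log2 fold change was 2.88 over the members and 0.02 over all genes, and the papillomas lay above WT SCC for 45 members, where 13% of all genes did so. The leukocyte markers summed to 166, 210.3 and 127 CPM in KO papilloma, against 300.3, 285 and 389 CPM in WT SCC, and their part was not tested. All 14 Lce1 and all 6 Lce3 genes rose.

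Lce1k had 47.6, 52.2 and 42.7 CPM in KO papilloma, against 4.15, 3.4 and 5.82 CPM in WT SCC. It rose 10.7-fold (log2 3.41 ± 0.26, adjusted p = 7.2e-05). Lce6a had 21.7, 32.8 and 19.2 CPM in KO papilloma, against 1.6, 1.65 and 3.03 CPM in WT SCC, an 11.7-fold rise (adjusted p = 0.000123). Both genes were low in WT SCC, and every papilloma lay well above it. Kprp had 149.5, 144 and 149 CPM in KO papilloma, against 29.9, 21.8 and 33 CPM in WT SCC, the member with the smallest p (log2 2.39 ± 0.18, adjusted p = 6.51e-05). Crct1 had 881, 962 and 956 CPM in KO papilloma, against 238, 190.1 and 260.3 CPM in WT SCC (log2 2.02 ± 0.18, adjusted p = 0.000134).

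Flg rose, with 606, 497 and 629.5 CPM in KO papilloma against 136, 96.5 and 125 CPM in WT SCC (log2 2.28 ± 0.25, adjusted p = 0.000482). Flg2 and Hrnr rose 13.5-fold and 8.25-fold, and Rptn 5.82-fold. Lor had 580.1, 766 and 1277 CPM in KO papilloma, against 389, 356 and 393 CPM in WT SCC, with a wide spread among papillomas (log2 1.21 ± 0.30, adjusted p = 0.0415). The Lor call was lost with the replicate block, without any 1 WT SCC library and without papilloma replicate 2 or 3 (adjusted p up to 0.155). Ivl had 517, 426 and 338 CPM in KO papilloma, against 329, 240.0 and 278 CPM in WT SCC, and did not pass (adjusted p = 0.308). Of the Sprr genes, Sprr2b, Sprr2d, Sprr2e and Sprr4 rose, and Sprr1a, Sprr1b and Sprr3 did not pass (adjusted p = 0.084, 0.334 and 0.236).

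Among the partners, Tgm1 and Tgm3 rose (2 of 4 transglutaminases), and so did 10 of 15 envelope genes outside the complex, including Cdsn and Krt1, another suprabasal keratin (log2 2.18 and 3.01). Of the filaggrin processing genes 7 of 15 rose, including Pcsk6 and the protease Klk5 (log2 1.57 and 2.59), and of the transcription factors 6 of 27, including Grhl1 and Ovol1 (log2 0.87 and 1.39). None of these lists held a gene that fell. Over all genes 3.49% rose and 1.77% fell. The count of members that rose was 23 to 30 with 1 library left out. Besides Lor, the calls of Lce3a, Lce3b, Lce3d, Lce3e, Lce3f, Sprr2d, Sprr2e and Sprr4 were each lost without at least 1 library.

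KO SCC set against KO papilloma, the comparison of lesion types within 1 label, gave few calls, all of them lower in the carcinomas. Of 48 members 0 rose and 5 fell, namely Flg, Lce1k, Kprp, Hrnr and Lce1c, against 0.0492% and 0.237% of all genes. The median log2 fold change was -0.75 over the members and -0.05 over all genes. KO SCC lay below KO papilloma for 21 members, all 14 Lce1 genes among them, and above for 7, where 15.5% and 16.1% of all genes did so.

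Flg had 80.7 and 83.4 CPM in KO SCC, against 606, 497 and 629.5 CPM in KO papilloma. It fell to 82.0 ± 1.87 CPM (SD, n = 2) against 577 ± 70.8 CPM (n = 3), by log2 -2.81 ± 0.30 (adjusted p = 0.0162). Lce1k had 17.3 and 11.1 CPM in KO SCC, against 47.6, 52.2 and 42.7 CPM in KO papilloma (log2 -1.74 ± 0.28, adjusted p = 0.0366). Hrnr had 125 and 114 CPM in KO SCC, against 611, 423 and 292 CPM in KO papilloma (log2 -1.89 ± 0.32, adjusted p = 0.0455). In all of these the carcinomas lay below every papilloma. Kprp had 67.4 and 62.9 CPM in KO SCC, against 149.5, 144 and 149 CPM in KO papilloma (log2 -1.18 ± 0.19, adjusted p = 0.0402).

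The other Lce1 genes had log2 changes from -2.71 to -1.09. Lce6a and Flg2 were at -1.77 and -2.34 without passing (adjusted p = 0.0515 and 0.0677). The Lce3 genes ran from 0.19 to 0.50 and none passed, and Sprr1a and Sprr1b were at -0.10 and -0.09. The difference between the Lce1 and Lce3 changes was not tested. Lor had 694 and 477 CPM in KO SCC, against 580.1, 766 and 1277 CPM in KO papilloma, and overlapped (log2 -0.58 ± 0.33, adjusted p = 0.425). Ivl lay lower in KO SCC, at 209 and 313 CPM against 517, 426 and 338 CPM in KO papilloma, without passing (adjusted p = 0.343).

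Of 15 envelope genes outside the complex 2 fell, Krt10 (log2 -2.91 ± 0.36, adjusted p = 0.0196) and Krt1 (log2 -2.97 ± 0.43, adjusted p = 0.03), and 0 rose. Of the 4 transglutaminases, 15 filaggrin processing genes and 27 transcription factors, 0 passed in either direction by edgeR's test, where 0.0492% of all genes rose and 0.237% fell. The count of members that fell was 19 by DESeq2, 16 with only these groups in the fit, 1 without KO papilloma replicate 1 or 2, and 0 without KO papilloma replicate 3, KO SCC replicate 1 or KO SCC replicate 2. Over all genes 17.2% of the calls were higher in KO SCC by edgeR and 44.3% by DESeq2. How many of all genes passed in each setting is not given, so these shifts cannot be read as particular to the members.

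**Figure D3:**
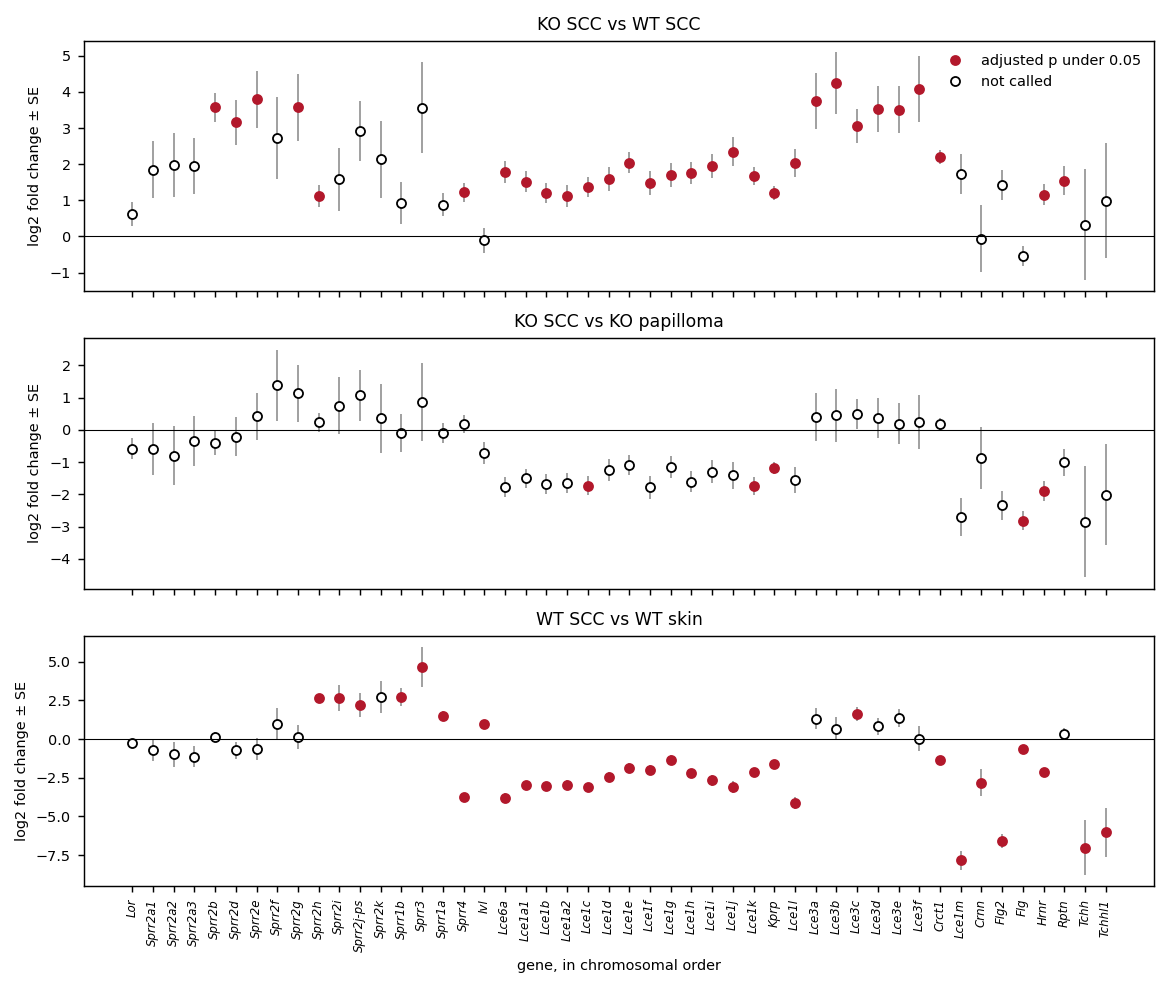
Log2 fold changes with standard errors for the 48 mouse members in chromosomal order, in 3 comparisons; filled points had an adjusted p below 0.05. The run from Lce6a to Lce1l lies above 0 in KO SCC against WT SCC and below 0 in the other panels, and the 6 Lce3 genes lie above 0 in all 3.

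Wild-type carcinoma differed from treated skin in both directions. Of 48 members 8 rose and 24 fell in WT SCC relative to WT skin, against 16.9% and 23.6% of all genes, so that the share of members that rose (16.7%) was near that of all genes. The median log2 fold change was -1.05 over the members and -0.16 over all genes. WT SCC lay above WT skin for 10 members and below for 21, where 24.8% and 29.9% of all genes did so. All 14 Lce1 genes fell, as did Lce6a, Kprp, Crct1, Sprr4 and 6 of 7 S100-fused genes, while Sprr1a, Sprr1b, Sprr3, Ivl, Lce3c and 3 of 12 Sprr2 genes rose. The summed keratinocyte markers were higher in WT SCC, at 44379.6 to 46835 CPM against 9816 to 17858 CPM in WT skin, and the leukocyte markers were lower, at 285 to 389 CPM against 472 to 1082 CPM in WT skin; the part of either in these differences was not tested. Divided by the keratinocyte markers, the summed members were 2.26 log2 units lower in WT SCC than in WT skin, where in CPM they were 0.50 lower.

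Flg2, the filaggrin-2 gene at chr3:93197278-93221391 (plus strand), had 2.44, 2.31 and 7.61 CPM in WT SCC, against 418, 466 and 318 CPM in WT skin. It fell by 6.60 on the log2 scale (SE 0.47, adjusted p = 7.69e-06). Lce1m had 1.63, 1.05 and 4.56 CPM in WT SCC, against 756, 627 and 288 CPM in WT skin (log2 -7.85 ± 0.64, adjusted p = 1.45e-05). Both were abundant in every skin library and low in every carcinoma. Sprr4 had 9.23, 8.67 and 12.2 CPM in WT SCC, against 149, 109.7 and 139 CPM in WT skin (log2 -3.72 ± 0.26, adjusted p = 7.57e-06), and Lce6a had 1.6, 1.65 and 3.03 CPM against 34.4, 29 and 24.2 CPM (log2 -3.80 ± 0.30, adjusted p = 1.28e-05). From Lce6a to Lce1l, 15 neighbouring members over 231 kilobases all fell.

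Sprr2h had 105, 89.4 and 86.1 CPM in WT SCC, against 23.6, 11.1 and 10.1 CPM in WT skin (log2 2.66 ± 0.29, adjusted p = 7.02e-05). Sprr1a had 1367, 1331 and 1549 CPM in WT SCC, against 693, 349.9 and 472 CPM in WT skin (log2 1.49 ± 0.30, adjusted p = 0.0025). Sprr1b had 964, 928 and 1019 CPM in WT SCC, against 255, 151 and 32.4 CPM in WT skin (log2 2.73 ± 0.56, adjusted p = 0.003). These genes were higher in every carcinoma than in any skin library. Lce3c had 72.2, 54 and 72.7 CPM in WT SCC, against 33.9, 24.2 and 6.31 CPM in WT skin, and was the only Lce3 gene to pass (log2 1.63 ± 0.44, adjusted p = 0.0124).

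Ivl had 329, 240.0 and 278 CPM in WT SCC, against 219.6, 92.2 and 122 CPM in WT skin, and rose 1.95-fold (adjusted p = 0.0254), a call lost without WT skin replicate 2 or 3 or WT SCC replicate 1 (adjusted p up to 0.0852). Flg had 136, 96.5 and 125 CPM in WT SCC, against 175, 128 and 265 CPM in WT skin, and fell with overlapping groups (log2 -0.67 ± 0.24, adjusted p = 0.0434). The Flg call was lost without WT skin replicate 1 or 3 or any 1 WT SCC library, and with only these groups in the fit (adjusted p up to 0.17). Lor, with 389, 356 and 393 CPM in WT SCC against 616, 419 and 337 CPM in WT skin, did not pass (adjusted p = 0.476). WT skin replicate 1 held the most Sprr2, at 1963 summed CPM against 474 and 144 CPM in the other skin libraries, together with the highest fibroblast markers. The 7 fibroblast markers summed to 2346 to 3999 CPM in WT SCC, against 36414, 18829 and 4779 CPM in WT skin replicates 1, 2 and 3, and their part was not tested. Without that library 18 members rose, and without WT SCC replicate 1 5 rose.

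Tchh, Tchhl1 and Crnn fell as well, and their skin levels moved with those of hair follicle keratins. Tchh, which encodes the trichohyalin that stiffens the inner root sheath of hair, had 9.52, 10.3 and 9.34 CPM in WT SCC, against 9.23, 474 and 3307 CPM in WT skin replicates 1, 2 and 3. The 8 inner root sheath keratins summed to 2.18, 0.864 and 2.7 CPM in WT SCC, against 32.5, 1479 and 9641 CPM in the same skin libraries, and 2 to 4 of the 8 had a count of 0 in each WT SCC library and none in WT skin. Among papillomas Tchh had 186, 71.2 and 7.76 CPM, where the sheath keratins summed to 684, 255 and 4.66 CPM. Tchhl1 had 1.25, 0.906 and 0.396 CPM in WT SCC, against 1.64, 35.5 and 128 CPM in WT skin. Crnn, the cornulin gene, had 13.8, 12.7 and 13.6 CPM in WT SCC against 13.5, 34.6 and 235 CPM in WT skin. WT skin replicate 1, the skin library with the least sheath keratin at 32.5 CPM, held Tchh and Crnn near the level of WT SCC. Its Tchhl1, at 1.64 CPM, lay above every WT SCC library. The part of the follicle in the calls of Tchh, Tchhl1 and Crnn (adjusted p = 0.00899, 0.011 and 0.0247) was not tested. The Crnn call was lost without WT skin replicate 3, where its log2 change was -0.84, without any 1 WT SCC library and with the replicate block.

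**Figure D4:**
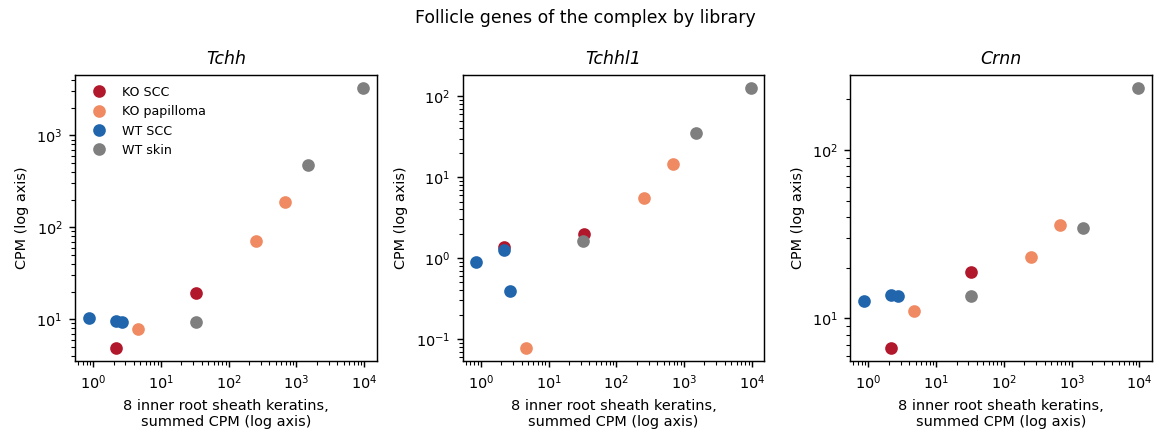
Each point is 1 of 11 mouse libraries, with the summed CPM of 8 inner root sheath keratins on the horizontal log axis and the CPM of Tchh, Tchhl1 or Crnn on the vertical one. WT skin replicate 3, with 9641 CPM of sheath keratins, is the top right point in each panel, at 3307 CPM of Tchh.

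Among the partners in WT SCC relative to WT skin, Tgm1 and Tgm3 rose (log2 1.87 and 3.51) and Tgm2 fell (log2 -2.44). Of 15 envelope genes outside the complex 4 rose, including Calml3 and Cnfn, and 4 fell, including Cst6 and Dsg1a. Of 15 filaggrin processing genes 4 rose, including Klk8 and Blmh, and 3 fell, including Klk5 and Klk7. Of 27 transcription factors 13 rose, including Fosl1, an AP-1 subunit (log2 3.89 ± 0.21, adjusted p = 3.92e-06), and Nfe2l2 (log2 2.61), and 7 fell, including Gata3 and Cebpa (log2 -1.99 and -1.02). In the last 3 lists 26.7%, 26.7% and 48.1% of genes rose and 26.7%, 20% and 25.9% fell, in that order. All genes rose at 16.9% and fell at 23.6%, so the shares that fell were near that of all genes.

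In A431 cells targeted at DUSP1, envelope genes passed in both directions at about the rate of all genes. Of the 34 members tested 9 rose and 7 fell (26.5% and 20.6%), near the 23.1% and 24.5% of all 18090 genes tested. The median log2 fold change was 0.02 over the members and 0.01 over all genes. The groups did not overlap for 9 members higher and 9 lower in DUSP1 KO cells, where 26.8% and 28.2% of all genes did so. SPRR1A, SPRR2A, SPRR2B, SPRR2C, SPRR2D, SPRR2E, SPRR4, LOR and FLG2 rose, and CRCT1, KPRP, LCE2D, LCE3D, LCE3E, SPRR2G and SPRR3 fell. Summed, the members reached 2460.3, 2515 and 2484 CPM in DUSP1 KO cells, against 1820.2, 1769.6 and 1817 CPM in control cells.

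SPRR1A had 506, 536 and 506 CPM in DUSP1 KO cells, against 229.8, 222 and 232 CPM in control cells (log2 1.18 ± 0.04, adjusted p = 9.03e-13). SPRR2A had 230.2, 231 and 232 CPM in DUSP1 KO cells, against 88.9, 85 and 91.4 CPM in control cells (log2 1.39 ± 0.05, adjusted p = 2.1e-13). The replicates of each group were nearly identical in level, and the groups were wide apart. SPRR2D had 107, 109.7 and 105 CPM in DUSP1 KO cells, against 55.5, 52.2 and 52.9 CPM in control cells (adjusted p = 2.53e-11), and SPRR2E 263, 274 and 276 against 147, 139 and 145 CPM (adjusted p = 2.92e-11). SPRR1B, the neighbour with the highest level, stood at 552, 565 and 571 CPM in DUSP1 KO cells against 521, 483 and 561 CPM in control cells and did not pass (adjusted p = 0.0789). SPRR2G went against its family and fell slightly, with 12.5, 10.6 and 10.1 CPM in DUSP1 KO cells against 13.8, 14.8 and 14.7 CPM in control cells (log2 -0.38 ± 0.09, adjusted p = 0.00176).

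LOR had 45.5, 34.1 and 42.1 CPM in DUSP1 KO cells, against 19.5, 18.9 and 20.3 CPM in control cells, and rose 2.08-fold (adjusted p = 1.69e-08). FLG had 498, 511 and 508 CPM in DUSP1 KO cells, against 530.4, 538 and 492 CPM in control cells, and IVL 76.6, 72.3 and 71.1 against 75, 74.6 and 78.9 CPM. Neither passed, with log2 changes of -0.04 ± 0.04 and -0.05 ± 0.05 (adjusted p = 0.465 and 0.395). FLG2 rose 1.57-fold (adjusted p = 1.55e-07), and SPRR4 rose most, 4.78-fold, at 9.47, 10.3 and 10.1 CPM in DUSP1 KO cells against 2.4, 1.98 and 1.89 CPM in control cells.

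LCE3D had 9.35, 8.06 and 8.22 CPM in DUSP1 KO cells, against 18.2, 17.6 and 16.4 CPM in control cells (log2 -1.02 ± 0.08, adjusted p = 2.92e-08). LCE3E had 3.77, 2.7 and 3.67 CPM in DUSP1 KO cells, against 6.96, 5.5 and 6.49 CPM in control cells (log2 -0.89 ± 0.14, adjusted p = 5.65e-05). CRCT1 had 9.26, 9.8 and 8.63 CPM in DUSP1 KO cells, against 17.7, 15.7 and 16.3 CPM in control cells (log2 -0.84 ± 0.08, adjusted p = 2.44e-07). SPRR3 had 1.98, 2.56 and 2.54 CPM in DUSP1 KO cells, against 4.12, 4.2 and 4.01 CPM in control cells (log2 -0.80 ± 0.15, adjusted p = 0.000253). All of these were low genes in this line, and in each the groups did not overlap. The LCE1 and LCE2 genes, at 1.09 CPM or less in every library, gave 1 call, LCE2D, which was lost without A431 control replicate 2, A431 DUSP1 KO replicate 2 or A431 DUSP1 KO replicate 3.

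**Figure D5:**
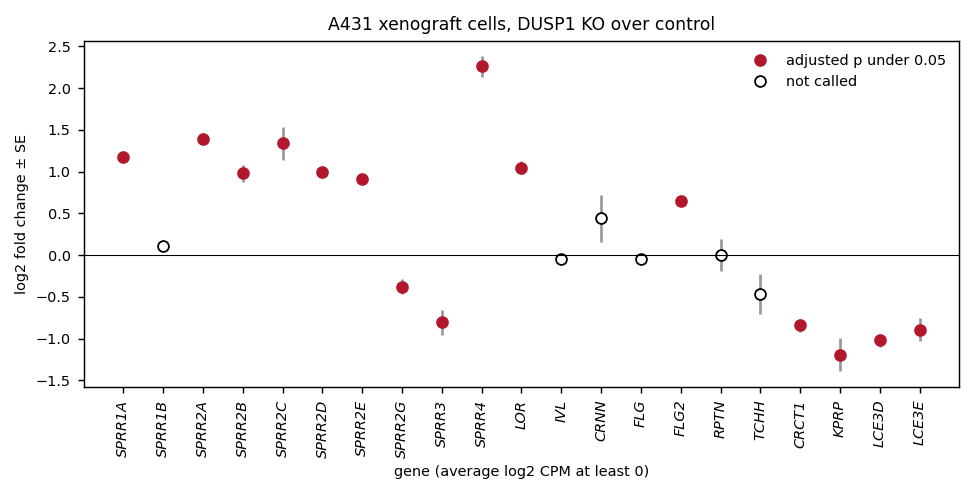
Log2 fold changes with standard errors, A431 DUSP1 KO over control, for the 21 members with an average log2 CPM of at least 0, grouped by family; filled points had an adjusted p below 0.05. SPRR4 stands highest at 2.26 and KPRP lowest at -1.19.

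Among the partners in A431 cells, TGM1 rose (log2 0.49) and TGM2 and TGM5 fell (log2 -0.61 and -1.06) of 4 transglutaminases. Of 17 envelope genes outside the complex 9 rose, including PI3, which encodes an elastase inhibitor bound into the envelope (log2 0.93 ± 0.04, adjusted p = 1.07e-11), and CALML3, and 5 fell, including KRT2, a keratin of the uppermost layers (log2 -2.73 ± 0.06, adjusted p = 3.73e-16), and DSG1. Of 15 filaggrin processing genes 8 rose, including the proteases KLK5 and KLK14 (log2 1.57 and 2.59), and 6 fell, including PRSS8 and PADI1. Of 27 transcription factors 9 rose, including HOPX and GRHL3 (log2 1.25 and 0.73), and 11 fell, including FOSL2 and MAF (log2 -0.81 and -0.89). Over all genes 23.1% rose and 24.5% fell.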

How the data were processed

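RNA was extracted from whole frozen sections of mouse tissue and from A431 cells separated from xenografts, and libraries were made with a stranded mRNA kit, per the labels' protocols. HISAT2, StringTie and DESeq, with builds mm10 and hg38, are named in the submitters' processing notes; versions, counting rules, the strand setting and the treatment of multi-mapped reads could not be read from the sources used here. The authors deposited raw counts per gene symbol, 1 column per library. Rows without a symbol (0.115% to 0.496% of counts) were left out. All 11 mouse libraries entered 1 fit of 4 groups, and the 6 A431 libraries on their own, in edgeR 4.0.16 (R 4.3.3) with TMM factors, filterByExpr and two-sided quasi-likelihood tests, adjusted by Benjamini-Hochberg over all genes tested. A gene passed at an adjusted p below 0.05. The members and the lists of partner and marker genes were chosen with earlier results of these data known. The script was tested on simulated data. Values in every library are given for Flg, Lor, Ivl and the 4 passing members of smallest p per direction and comparison with an average log2 CPM of at least 1, and for others where a result turns on them, chosen after their values were seen. Up to 2 partner genes per list and direction, those of smallest p, are named. Gene positions and exon lengths are from GENCODE vM21. Alternatives were RLE factors, no filter, DESeq2, a replicate block, only the groups compared, each library left out, and keratinocyte markers as the base of the summed level. Library totals of 34378300 to 53456450 counts put 3 counts at 0.0529 to 0.0871 CPM; such floors cover counting error only.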

Additional observations from a re-analysis of the deposited data

Results flagged for a closer look

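Some members with the same symbol went in opposite directions under the DUSP1 label in the mouse carcinomas and in A431 cells, with groups that did not overlap in either system. The difference between the systems was not tested, and symbols of multi-copy families need not pair the same gene across species. Crct1 had a log2 change of 2.19 in KO SCC relative to WT SCC and -0.84 in A431 DUSP1 KO relative to control. Kprp had 1.21 in mouse and -1.19 in A431. Lce3d had 3.53 in mouse and -1.02 in A431, and Lce3e 3.50 and -0.89. Sprr2g had 3.57 in mouse and -0.38 in A431. Sprr3 had 3.56 in mouse, where it did not pass the test, and -0.80 in A431. Of 29 members with a shared symbol, 13 had groups apart in both systems, 6 in opposite directions and 7 in the same. All 6 lay higher in KO SCC and lower in A431 DUSP1 KO. Of the 48 mouse members 44 lay above WT SCC, while in A431 9 lay above control and 9 below. The same counts over all genes with a shared symbol were not made, so this split may be no different from that of genes at large. Sprr2b, Sprr2d, Sprr2e and Sprr4 rose in both.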

How the results depend on the processing

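Counts of members that passed depended on the setting in KO SCC against WT SCC, in KO SCC against KO papilloma and in WT SCC against WT skin. In KO SCC against WT SCC 30 rose; with 1 library left out 7 to 23 did, and 5 passed under every alternative. With all libraries kept, the other settings gave 18 to 42 that rose, so some members without a call here passed in another setting. With only these groups in the fit 1 fell, Flg, and Lor was among those that rose (adjusted p = 0.0302). In KO SCC against KO papilloma 5 fell; 2 fell with RLE factors, 19 with no filter, 19 by DESeq2, 16 with only these groups in the fit and 0 to 1 with 1 library left out, and 0 passed under every alternative. In WT SCC against WT skin 8 rose, and 5 to 18 with 1 library left out. In KO papilloma against WT SCC and in A431 each count stayed within 1.5 times the reported one, and 23 of 32 and 15 of 16 calls passed under every alternative. The cause of these shifts was not tested. Counts over all genes in each setting are not given, so a shift need not be particular to the members. Ivl in KO SCC against WT SCC ranged from log2 -0.44 to 0.15 with 1 library left out, above 0 without WT SCC replicate 1 (0.01) and KO SCC replicate 1, and Lor in WT SCC against WT skin from -0.44 to 0, the end value without WT skin replicate 1; neither gene passed in any of these. The deviations of same-numbered libraries from their group means had correlations of -0.411 to 0.166. In groups this small the deviations offset each other, so these values cannot tell whether the numbers pair libraries. The columns of KO SCC replicates 1 and 2 are named KOSC2 and KOSC3, so the replicate numbers used in the block differ from the column numbers there. With the replicate number as a block, 18 members rose in KO SCC against WT SCC and 1 fell in KO SCC against KO papilloma; the other counts stayed within 1.5 times. Relative to keratinocyte markers, the log2 difference of the summed members was 1.15 in place of 1.54 in KO SCC against WT SCC, 1.52 in place of 1.80 in KO papilloma against WT SCC, -2.26 in place of -0.50 in WT SCC against WT skin and 0.53 in place of 0.46 in A431. Depth limits the LCE1 and LCE2 genes of A431, which lie near 1 CPM or below.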
